A study of Mus musculus with 6 samples.

Results

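Lmx1b, Lmx1a, Pitx3, Nr4a2, Foxa1, Foxa2, Msx1, Ebf3 and Pbx3 are transcription factors of the mesodiencephalic dopaminergic (mdDA) lineage, the midbrain neurons that make dopamine. These 9 genes were chosen by name, and all 9 were found among the 26852 genes of the deposited table by matching Ensembl gene identifiers to symbols on GRCm38. RNA of dissected mouse midbrain at E14.5 (embryonic day) was sequenced from 2 groups of C57Bl/6 embryos. The 3 Lmx1b cKO libraries came from Lmx1b fl/fl; Pitx3-Cre embryos, in which the floxed Lmx1b alleles are recombined where Pitx3 drives Cre. The 3 control libraries came from Lmx1b wt/wt; Pitx3-Cre embryos. Cre sits in the Pitx3 locus, so embryos of both groups are heterozygous for Pitx3. Each library pooled RNA of a pair of embryos, and the embryos of a group came from different litters. The Cre is active only in Pitx3-expressing neurons, from shortly before the dissection, whereas the RNA came from the whole midbrain with all its other cells. In such bulk RNA, fewer cells of a type and less RNA per cell cannot be told apart.

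The factors act at successive steps. Foxa1 and Foxa2 are forkhead factors of the floor plate, Lmx1a, Lmx1b and Msx1 specify the ventral midbrain progenitors, and Nr4a2 (Nurr1) and Pitx3 act in the post-mitotic neurons, where they drive the genes for dopamine synthesis and transport. Ebf3 and Pbx3 belong to the Ebf (Collier/Olf/Ebf) and TALE homeobox families, are found in many young neurons and take part in neuronal differentiation and migration. Lmx1b has other sites of expression too, among them the isthmic organizer and the serotonergic neurons.

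The targeted gene and its paralog Lmx1a encode closely related LIM homeodomain proteins. The most similar stretch of their coding sequences is shown because reads of a shared stretch could be counted for either gene. In the best matching window of 90 coding bases, which encodes part of the homeodomain, 78 bases (86.7%) were the same, and capitals mark the bases that differ. The Lmx1a stretch covers coding bases 691 to 780 and spans exon 5 (chr1:167832838-167832894) and exon 6 (chr1:167840903-167840935) on the plus strand of GRCm38. The Lmx1b stretch covers coding bases 694 to 783 and spans exon 5 (chr2:33566885-33566941) and exon 6 (chr2:33566705-33566737) on the minus strand.
Lmx1a: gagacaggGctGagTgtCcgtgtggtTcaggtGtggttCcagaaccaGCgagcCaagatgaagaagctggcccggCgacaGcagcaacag
Lmx1b: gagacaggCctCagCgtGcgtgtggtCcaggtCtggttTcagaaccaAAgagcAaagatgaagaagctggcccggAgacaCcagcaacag
The longest run of identical bases in the 2 coding sequences was 21 bases. No stretch of 50 bases in the transcripts of one of the 9 genes occurred in those of another. Of all 50-base stretches of Lmx1b transcripts, 0.39% occurred in transcripts of other genes, against 0.0598% for Lmx1a and 2.26% for Ebf3, where they lie in the opposite-strand gene Gm45278, and 0 for the other 6.

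The table gives the mean normalized count of each group, in which each library's read count had been divided by a size factor, and the whole read counts behind each mean were recovered. A single set of 3 counts gave the printed mean in both groups for 26805 genes (99.8%), including all 9 factors. The recovered libraries carry no sample number, so within a group the letters a, b and c name the replicates from the largest to the smallest size factor. They held between 27062241 and 32755862 reads on these genes. The dissection label was set beside marker genes. Otx2, a midbrain gene named for this check, had 1613 to 1863 normalized counts. The Hox genes of the hindbrain Hoxa2, Hoxb2, Hoxa3 and Hoxb3 together had at most 6.19 in any library. A list of 4 forebrain genes summed to 1025 to 1560 over the libraries, and 4 genes listed for subthalamic and mammillary neurons to 3684 to 4942. These markers do not show that the dissection held midbrain alone. A list of 11 bone and mesenchyme genes summed to 14067 in cKO replicate c and 2171 in cKO replicate a, against 636 to 742 in the other libraries, with Col1a1 at 6097, Col1a2 at 4315, Col3a1 at 2319, Lum at 306 and Ibsp at 163 in cKO replicate c.

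None of the 9 factors passed the test between Lmx1b cKO and control (limma with voom weights, Benjamini-Hochberg adjusted p under 0.05 over 17130 genes), and no gene of the table did (0%), while 473 genes had an unadjusted p under 0.05. These are fewer genes than that threshold alone would give if none differed. They are therefore not read as differences, and the lack of calls is not read as a lack of differences. All 9 had a mean normalized count of at least 10 and were tested. The difference that came nearest was in Pitx3, lower in the cKO, and Foxa2 followed it. At an unadjusted p under 0.05, 1 of the 9 (Pitx3) was lower in the cKO and none higher, where 2.76% of all genes passed that threshold, 1.61% lower and 1.16% higher. Every cKO library lay below every control library for 2 of the 9, Pitx3 and Nr4a2, against 3.70% of all genes, and above it for none, against 3.88% (7.57% in either direction). The estimate was below 0 for 9 of 9 factors, with a median log2 fold change of -0.08, while 49.5% of all genes had a negative estimate and their median was 0.0012. This common sign was lost in several fits without a library, in which Lmx1b, Foxa1, Msx1, Ebf3 or Pbx3 turned positive. With 3 libraries per group, the exact permutation test cannot give a two-sided p below 0.1.

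**Figure D1:**
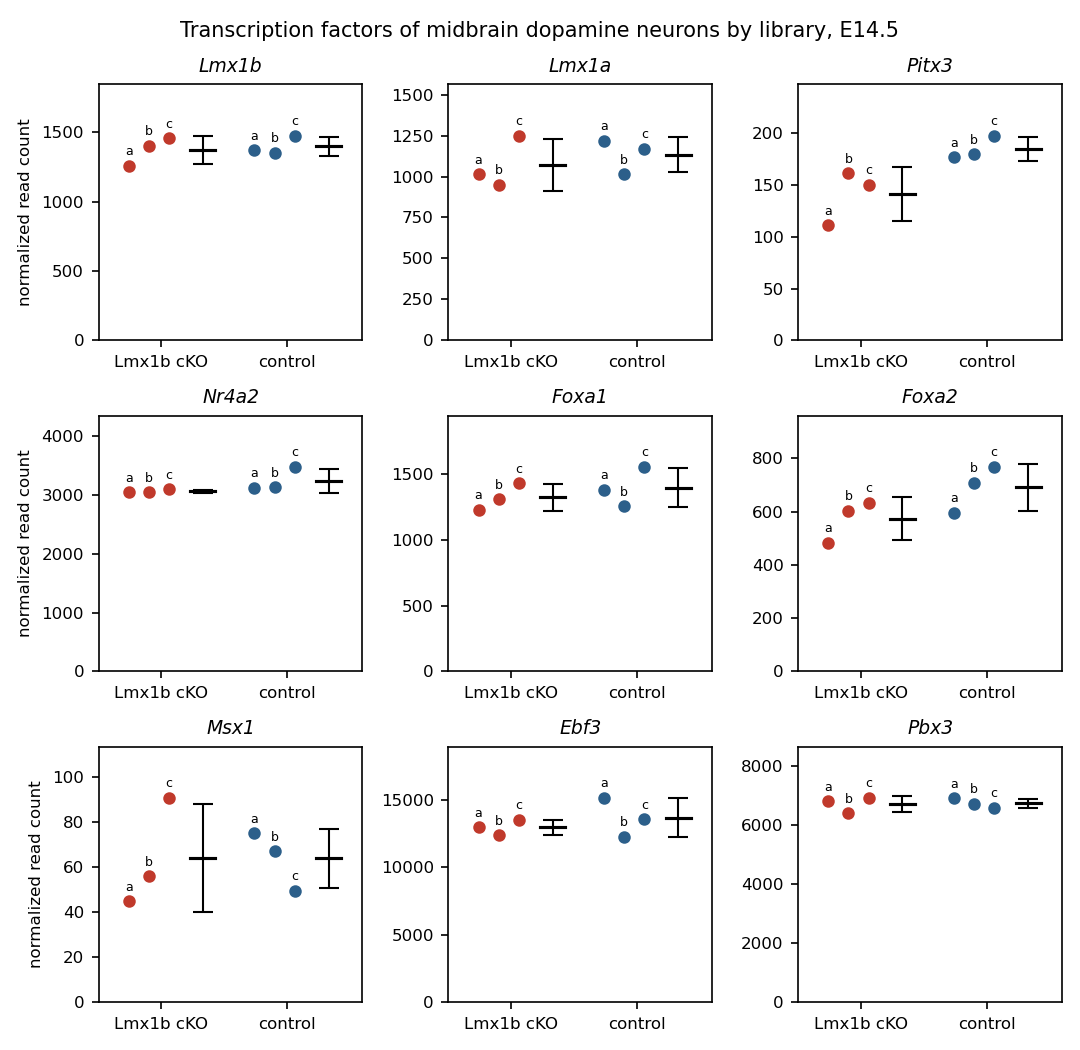
Normalized read counts of the 9 transcription factors in each of the 3 Lmx1b cKO (red) and 3 control (blue) libraries, lettered by replicate, with the mean and SD of each group as bars beside the points. The groups are separate for Pitx3, from 111 to 162 against 177 to 198, and for Nr4a2, from 3047 to 3098 against 3126 to 3484, and overlap for the other 7.

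Lmx1b itself (ENSMUSG00000038765, chr2:33560965-33640511, minus strand), the gene that the Cre deletes, had normalized counts of 1257, 1401 and 1455 in cKO replicates a, b and c, and the control replicates had 1368, 1352 and 1474. The groups overlap, with cKO replicate a lowest and control replicate c highest. The cKO mean was 1371 ± 102 (SD, n = 3) and the control mean 1398 ± 66.6 (SD, n = 3). Their log2 fold change was -0.03 (SE 0.07, 95% interval -0.19 to 0.13), with an adjusted p of 1.00 in limma (unadjusted 0.684) and an exact permutation p = 0.8. The lower end of that interval is 0.874 times the control level. The count covers the whole gene and all cells of the dissection, so it does not check the deletion in the Pitx3-expressing neurons. The paper checked it by in situ hybridization and reports a clear loss of Lmx1b signal there. Without cKO replicate a, the sign of the estimate turned (0.03).

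Lmx1a (ENSMUSG00000026686, chr1:167689237-167848741, plus strand), the paralog that acts beside Lmx1b in mdDA progenitors, had 1016, 949 and 1249 normalized counts in cKO replicates a, b and c. The control replicates had 1218, 1013 and 1171. The highest value of all was in cKO replicate c and the lowest in cKO replicate b, so the groups overlap throughout. Its log2 fold change of -0.09 (SE 0.11) had a 95% interval from -0.33 to 0.14, with an unadjusted limma p of 0.403 and an exact permutation p of 0.8. The estimate moved to -0.20 without cKO replicate c and to -0.01 without cKO replicate b. A rise of Lmx1a in the cKO was not detectable within these limits.

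Pitx3 (ENSMUSG00000025229, chr19:46135685-46148326, minus strand), which post-mitotic mdDA neurons need for their terminal differentiation and which is a specific gene for them within the brain, showed the largest estimate of the 9. The cKO replicates a, b and c had 111, 162 and 150 normalized counts, from 119, 153 and 139 reads. The control replicates had 177, 180 and 198, from 200, 187 and 183 reads. All 3 cKO libraries lay below all 3 control libraries, and cKO replicate a stood lowest. The means were 141 ± 26.3 (SD, n = 3) and 185 ± 11.3, a ratio of 0.764, and limma fitted 0.752 times the control level (log2 fold change -0.41, SE 0.18, 95% interval -0.80 to -0.02). The limma p was 0.0407, the adjusted p 1.00 and the exact permutation p 0.1, the smallest possible. The unadjusted p stayed under 0.05 in 2 of the 6 fits without a library and was 0.209, with a log2 fold change of -0.24, without cKO replicate a.

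Exons of Pitx3 share 10 bases with Elovl3 on the opposite strand, which had at most 6.72 normalized counts in any library. The bases before the Pitx3 start are shown because this gene had the largest difference, and they held none of the motifs searched in both directions: TAATTA (a homeodomain core), TAATCC (the core bound by Pitx and Otx factors), TGTTTAC (a forkhead motif) and AAGGTCA (the half-site of the Nr4a receptors). This is RefSeq sequence on GRCm38.p6, from chr19:46148326-46148575 on the minus strand.
Pitx3: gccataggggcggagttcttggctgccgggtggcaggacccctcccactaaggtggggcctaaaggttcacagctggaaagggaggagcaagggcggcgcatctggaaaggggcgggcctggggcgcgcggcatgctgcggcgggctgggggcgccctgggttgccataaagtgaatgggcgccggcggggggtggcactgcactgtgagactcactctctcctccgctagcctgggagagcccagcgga

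Nr4a2 (ENSMUSG00000026826, chr2:57106830-57124003, minus strand), the nuclear receptor that induces Th and the dopamine transporters, had 3051, 3047 and 3098 normalized counts in cKO replicates a, b and c. The control replicates had 3126, 3133 and 3484. The groups did not overlap, but the highest cKO and the lowest control library were close, and control replicate c stood above the rest. Against a control mean of 3248 ± 205 (SD, n = 3), the cKO mean was 3065 ± 28.0. The log2 fold change of -0.08 (SE 0.06, 95% interval -0.20 to 0.04) had an unadjusted limma p = 0.188 and an exact permutation p = 0.1. Without control replicate c it was -0.03. The spread among the 3 cKO libraries was a coefficient of variation (SD over mean) of 0.912%, below the 1.83% that read counting alone gives at this depth.

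Foxa2 (ENSMUSG00000037025, chr2:148042877-148046969, minus strand), the floor plate forkhead factor that remains in mature mdDA neurons, had 483, 604 and 634 normalized counts in cKO replicates a, b and c. The control replicates had 595, 709 and 769. Control replicate a lay below cKO replicates b and c, so the groups overlap, with the lowest library in the cKO and the highest in the control. The means were 574 ± 79.9 and 691 ± 88.1 (SD, n = 3 each), a ratio of 0.831, with a limma log2 fold change of -0.27 (SE 0.13, 95% interval -0.55 to 0.01). The unadjusted limma p was 0.0565 and the exact permutation p 0.3. The former passed under 0.05 with sample quality weights (0.0254), with total counts as size factors (0.0479), without control replicate a (0.01) and without cKO replicate c (0.0336), and reached 0.274, with a log2 fold change of -0.14, without cKO replicate a.

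Foxa1 (ENSMUSG00000035451, chr12:57540628-57546916, minus strand), which overlaps with Foxa2 in sites and function, had 1228, 1307 and 1429 normalized counts in cKO replicates a, b and c, and the control replicates had 1378, 1253 and 1553. The ranges overlap for most of their width. Its log2 fold change was -0.07 (SE 0.09, 95% interval -0.27 to 0.12, unadjusted limma p = 0.420, exact permutation p = 0.6). Without control replicate c it was 0.00. Among the 8 factors with a matched promoter, only that of Foxa1 held a searched motif, a forkhead match read as GTAAACA. It begins 141 bases before the RefSeq start that was used and is in capitals. The RefSeq sequence is from chr12:57546112-57546361, minus strand, GRCm38.p6. This stretch lies inside the gene span given above, so that start is an internal one.
Foxa1: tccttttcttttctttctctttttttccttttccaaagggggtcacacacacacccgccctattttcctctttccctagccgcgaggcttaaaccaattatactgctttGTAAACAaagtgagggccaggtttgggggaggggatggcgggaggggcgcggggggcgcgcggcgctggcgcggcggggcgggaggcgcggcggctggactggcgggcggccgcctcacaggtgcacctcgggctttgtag
Of 32851 RefSeq promoters of 300 bases (250 before to 50 after the start), 3.65% held TGTTTAC, 5.29% TAATTA, 7.06% TAATCC and 4.72% AAGGTCA on either strand. TAATTA and TAATCC share the letters TAAT. Promoters were matched for 8 of the 9 factors, with 3 starts for Foxa2. A match is a match of letters only, and no match says nothing of the factor.

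Msx1 (ENSMUSG00000048450, chr5:37820485-37824583, minus strand), a homeobox gene of mdDA progenitors and of roof plate and craniofacial mesenchyme, was the factor with the fewest reads. The cKO replicates a, b and c had 45.0, 56.0 and 90.9 normalized counts, from 48, 53 and 84 reads. The control replicates had 75.2, 67.2 and 49.7, from 85, 70 and 46 reads. The highest and the lowest library were both in the cKO. The means were alike, 64.0 ± 24.0 and 64.0 ± 13.1 (SD, n = 3), and the exact permutation p was 1. The log2 fold change of -0.08 (SE 0.31, unadjusted limma p of 0.790) had a 95% interval from -0.75 to 0.58, the widest of the 9. The coefficient of variation was 37.5% in the cKO, where read counting alone gives 12.8%. The library with most Msx1, cKO replicate c, was the one with the most bone and mesenchyme RNA, and all 11 genes of that list were highest there. The library with the next highest sum of that list, cKO replicate a, had the lowest Msx1 of all 6. The part of these cells in the level of Msx1 was not tested. Without cKO replicate c the log2 fold change of Msx1 was -0.35, with a limma p of 0.285, and without cKO replicate a it was 0.15. Of the genes listed for roof plate and choroid plexus, Gdf7 had 5 reads in control replicate a and 0 in the other libraries. Wnt1 had 5 to 23 reads over the libraries and Wnt3a 0 to 6.

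Ebf3 (ENSMUSG00000010476, chr7:137193673-137314445, minus strand) had 12977, 12351 and 13507 normalized counts in cKO replicates a, b and c, and the control replicates had 15147, 12256 and 13547. Control replicates a and b were the highest and the lowest of all libraries, and the cKO libraries lay between them. The log2 fold change was -0.07 (SE 0.07, 95% interval -0.22 to 0.08, unadjusted limma p = 0.302, exact permutation p = 0.6). It rested on those control libraries: it was 0.01 without control replicate a and -0.15, with an unadjusted p of 0.0275, without control replicate b. Exons of Ebf3 share 355 bases with Gm45278 on the opposite strand, and whether strand was used in counting is not given in the sources used here, so reads of that stretch may belong to either gene.

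Pbx3 (ENSMUSG00000038718, chr2:34171457-34373142, minus strand) lies 0.531 Mb from Lmx1b and had the smallest estimate of the 9. It had 6807, 6402 and 6930 normalized counts in cKO replicates a, b and c, and the control replicates had 6911, 6720 and 6592. The groups overlap and their means, 6713 ± 276 and 6741 ± 161 (SD, n = 3), differ by less than either SD. The log2 fold change was -0.01 (SE 0.05, unadjusted limma p = 0.885, exact permutation p = 1), and the 95% interval from -0.11 to 0.10 limits a difference to between 0.926 and 1.07 times the control level. This is the narrowest interval among the 9.

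**Figure D2:**
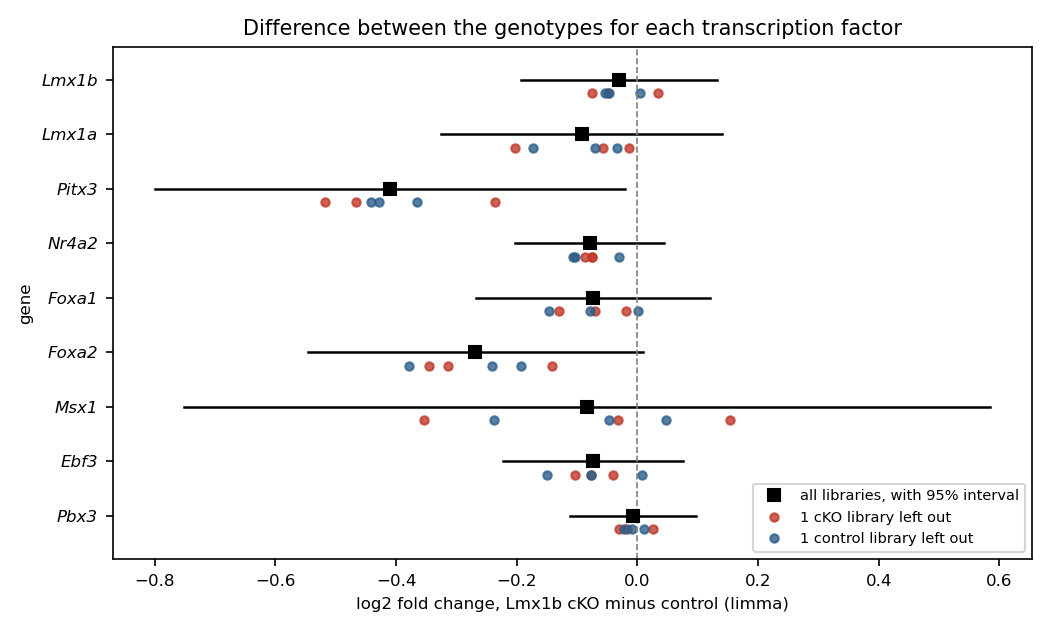
Log2 fold change (Lmx1b cKO minus control, limma) of each transcription factor as a black square with its 95% interval, and the same estimate after each single cKO (red) or control (blue) library was left out. Pitx3 stays below 0 in every such fit, from -0.52 to -0.24, as does Foxa2, from -0.38 to -0.14, while Msx1 ranges from -0.35 to 0.15.

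Levels can be compared between genes only per length, so normalized counts were divided by the kilobases of merged exons and averaged over the 6 libraries. Ebf3 was highest at 1441 ± 115 (SD, n = 6), followed by Pbx3 at 1101 ± 33.2 and Nr4a2 at 778 ± 40.5. These 3 stood above 94.3%, 91.7% and 87.0% of all genes tested. Foxa1 had 408 ± 36.6 normalized reads per kilobase, Lmx1a 325 ± 36.9, Lmx1b 284 ± 16.1 and Foxa2 267 ± 41.7. Pitx3 had 107 ± 19.6 and Msx1 20.7 ± 5.58 normalized reads per kilobase, the latter above 17.0% of genes tested. The ranges of neighbours in this order did not overlap, except Lmx1a with Lmx1b and Lmx1b with Foxa2. Lmx1b and Foxa2 change places when the length of the longest transcript is used or only control libraries are counted. With the longest transcript, the level was 2663 for Ebf3, 2354 for Pbx3 and 33.1 for Msx1, and the other factors moved less. Ebf3 and Pbx3 are expressed in many kinds of young neuron, so their levels are not those of mdDA neurons alone.

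The factors were set beside other genes of their families, a list of 11 of which 10 were in the table. Per kilobase of exon, Nr4a2 (778) stood far above Nr4a1 (76.2) and Nr4a3 (55.5), the other receptors of its family. Ebf3 (1441) was likewise above Ebf1 (346), Ebf2 (317) and Ebf4 (284), with no overlap of their ranges over the libraries. Pitx3 (107) was above Pitx1 (42.2), and Pbx3 (1101) was above Pbx2 (724) and Pbx4 (159). Msx1 (20.7) was above Msx2 (4.08) in every library, but Msx3 was above Msx1 in control replicate a, where it reached 48.1 per kilobase. Msx3, named after its values were seen, had 113 normalized counts in control replicate a and 6.49 to 12.7 in the other 5 libraries.

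**Figure D3:**
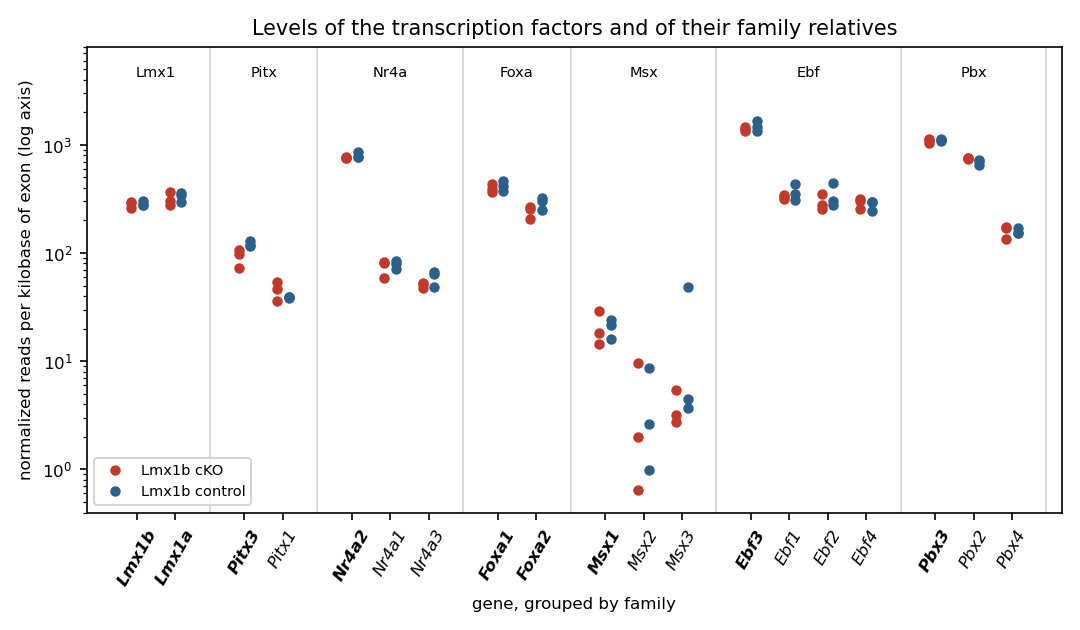
Normalized reads per kilobase of merged exons on a log axis, for the 9 factors (bold) and 10 family relatives, with 3 Lmx1b cKO (red) and 3 control (blue) libraries as points. Nr4a2 and Ebf3 lie above the relatives plotted beside them in every library, and Msx3 has 1 control library far above the others.

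Of the 10 relatives, none had an unadjusted p under 0.05 in limma, and their median log2 fold change was -0.11. The one with the highest level per kilobase, Pbx2, had a log2 fold change of 0.12 (unadjusted limma p = 0.0609, exact permutation p = 0.1).

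Of 13 other regulators of the dopaminergic lineage, 2 were lower at an unadjusted p under 0.05, none was higher, none passed adjustment in limma, and the median log2 fold change was -0.09. These were the engrailed genes, which maintain mdDA neurons and also pattern the midbrain and isthmus. En1 had 940, 1058 and 1147 normalized counts in cKO replicates a, b and c, and the control replicates had 1277, 1326 and 1540 (log2 fold change -0.40, SE 0.09, unadjusted limma p = 0.00133, exact permutation p = 0.1). En2 had 1413, 1716 and 1889 in the cKO against 2399, 2012 and 2440 in the control (log2 fold change -0.46, SE 0.10, unadjusted limma p = 0.000929, exact permutation p = 0.1). For both, the groups did not overlap, and cKO replicate a was the lowest library, as it was for Lmx1b, Pitx3, Foxa1, Foxa2 and Msx1. Lmo3 had the highest level per kilobase of this list (898) and a log2 fold change of -0.10 (unadjusted limma p = 0.109, exact permutation p = 0.3).

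Of 11 dopaminergic genes, Ddc was lower and Aldh1a1 higher at an unadjusted p under 0.05, none passed adjustment in limma, and the median log2 fold change was -0.13. Ddc, the enzyme that makes dopamine from L-DOPA, had a log2 fold change of -0.24 (SE 0.10, unadjusted limma p = 0.0362, exact permutation p = 0.1). Serotonergic neurons use Ddc too, and the log2 fold changes of the 5 genes listed for them were -1.23 for Slc6a4, -0.93 for Fev, -0.86 for Tph2, -0.09 for Htr1a and 0.0028 for Gata3. The groups overlapped for all of these but Slc6a4. The part of these neurons in the difference of Ddc was not tested. Aldh1a1, a retinoic acid enzyme of an mdDA subset, had one of 0.92 (SE 0.18, unadjusted limma p = 0.000252, exact permutation p = 0.1). Th, the rate-limiting enzyme of dopamine synthesis, had 745, 733 and 778 normalized counts in cKO replicates a, b and c, and the control replicates had 776, 790 and 976, with a log2 fold change of -0.16 (unadjusted limma p = 0.141, exact permutation p = 0.2). Dlk1 had the highest level per kilobase of the list (831) and a log2 fold change of 0.10 (unadjusted limma p = 0.475, exact permutation p = 0.7).

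To set each factor against the dopaminergic signal of its own library, its log2 ratio to the sum of Th, Ddc, Slc6a3 and Slc18a2 was taken. This sum was 4443, 4395 and 4175 in cKO replicates a, b and c, and the control replicates had 4031, 4979 and 5163. Most of it came from Ddc (1552 to 2274 over the libraries) and from the vesicular transporter gene Slc18a2 (1152 to 1938), which serotonergic neurons express as well. For Pitx3 this log2 ratio was -5.32, -4.77 and -4.79 in cKO replicates a, b and c, a mean of -4.96 ± 0.31 (SD, n = 3). The control replicates had -4.51, -4.79 and -4.71, a mean of -4.67 ± 0.15. The groups, which were separate for the counts of Pitx3, overlapped for this ratio, since cKO replicate b lay above control replicate b. The difference was -0.29 (exact permutation p = 0.2, two-sided), and -0.24 against Th alone (exact permutation p = 0.2). Against the sum it was -0.15 for Foxa2 (exact permutation p = 0.4) and lay between 0.03 and 0.11 for the other 7, with exact permutation p-values from 0.5 to 0.9. Nr4a2, which did not overlap between the groups by its counts, had a ratio of -0.50 ± 0.06 in the cKO and -0.53 ± 0.15 in the control. Without cKO replicate a, the difference in ratio was -0.11 for Pitx3 and -0.02 for Foxa2. The 9 ratios share one denominator and are not independent of each other.

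The libraries in which the factors were lowest and highest were not spread evenly. Replicate a of the cKO was the lowest of all 6 libraries for Lmx1b, Pitx3, Foxa1, Foxa2 and Msx1, 5 of 9, and held the lowest value for 18.8% of all genes tested. Control replicate c was the highest for Lmx1b, Pitx3, Nr4a2, Foxa1 and Foxa2, also 5 of 9, and for 14.7% of all genes. On the log2 scale, relative to each gene's mean over the libraries, cKO replicate a was at -0.52 for Pitx3, -0.37 for Foxa2 and -0.14 for Foxa1. Control replicate c was at 0.30 for Pitx3 and for Foxa2 and at 0.20 for Foxa1. The 4 floor plate genes Shh, Corin, Spon1 and Ntn1 together were at -0.22 in cKO replicate a, -0.24 in cKO replicate b, 0.23 in cKO replicate c and 0.37 in control replicate c. Their sum ranged from 11711 to 16279 normalized counts in the cKO and from 12999 to 17928 in the control. Most of it was Ntn1 (7103 to 11185 over the libraries) and Spon1 (3791 to 5778), which other cells express as well, while Shh had 425 to 705 and Corin 82.4 to 267. The part of floor plate tissue in the differences of Pitx3 and Foxa2 was not tested.

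**Figure D4:**
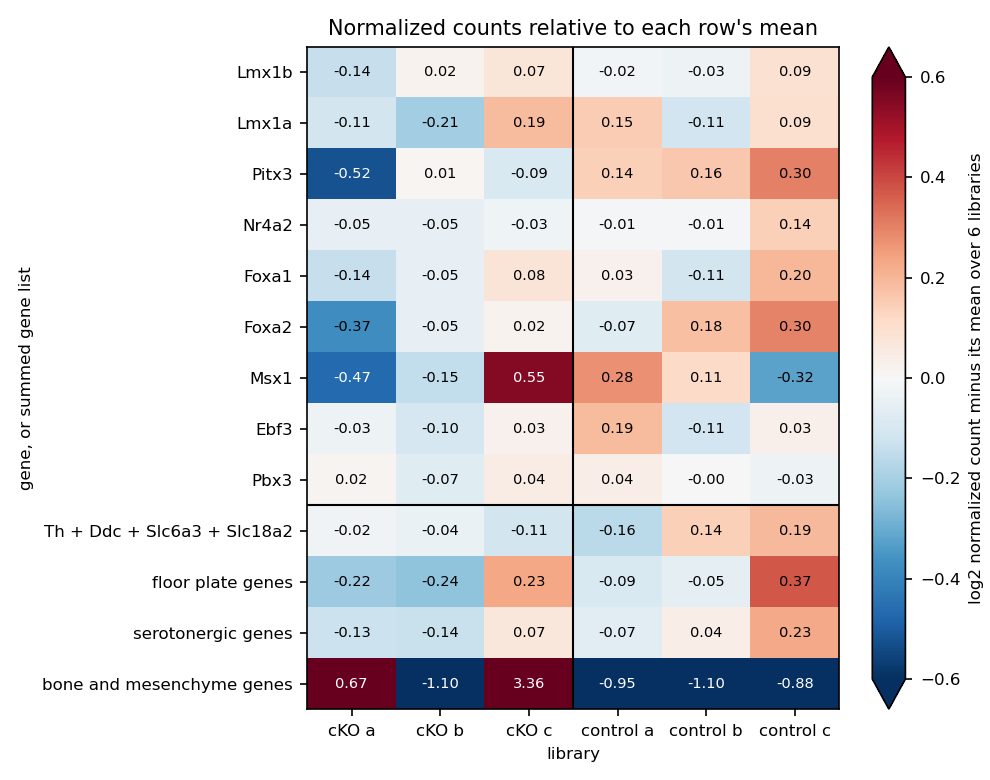
Log2 normalized count minus its mean over the 6 libraries, for the 9 factors and, below the line, for the summed dopaminergic marks and 3 marker lists, with cKO libraries on the left and control libraries on the right. The colour scale ends at 0.6 in both directions. Pitx3 and Foxa2 are lowest in cKO replicate a (-0.52 and -0.37) and highest in control replicate c (0.30 for both), and Msx1 is highest in cKO replicate c (0.55), where bone and mesenchyme genes are at 3.36. The serotonergic row is mostly Gata3, and the floor plate row mostly Ntn1 and Spon1.

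Markers of other cells of the dissection were compared because several factors are also expressed outside mdDA neurons. The serotonergic list, whose neurons express Lmx1b, had 3 of 5 genes lower at an unadjusted p under 0.05 (Slc6a4, Tph2 and Fev, named after their values were seen) and a median log2 fold change of -0.86, with sums from 2893 to 3329 normalized counts in the cKO and from 3028 to 3725 in the control. Most of this sum was Gata3, also a gene of midbrain GABAergic neurons, with 2546 to 2712 normalized counts in the cKO and 2315 to 2929 in the control, so the sum does not follow the other genes of the list. The floor plate list had 1 of 4 genes lower, Corin, also named after its values were seen, and a median of -0.19. In the subthalamic and mammillary list, 1 of 4 genes was higher at that threshold, Foxb1, named after its values were seen, and the median was 0.21. The forebrain list had 2 of 3 tested genes higher, Emx2 and Dlx5, again named after their values were seen, and a median of 0.30. The roof plate and choroid plexus list summed to 101 to 126 normalized counts in any library, most of it Folr1 (76.8 to 110), and none of its 2 tested genes was at that threshold. The oculomotor and red nucleus list (median -0.11), the meninges list (0.19) and the vascular list (0.02) also had none. In the bone and mesenchyme list 1 of 10 tested genes, Col3a1, was higher at an unadjusted p under 0.05, and the median was 1.49. None of these genes passed adjustment in limma, and the part of these cells in the differences of Lmx1b, Pitx3 and Foxa2 was not tested.

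For each factor, the gene with the most similar pattern over the 6 libraries was sought among 12898 genes that averaged 100 normalized counts or more, by the root mean square (RMS) difference of log2(normalized count + 1) values centred on each gene's mean. For Pbx3 this was Cdk14 (0.00675), for Lmx1b Fam162a (0.0138), for Nr4a2 Ddost (0.0212), for Ebf3 Zfp846 (0.0236) and for Foxa1 Palb2 (0.0239). It was Pole for Lmx1a (0.0313), Gm6548 for Foxa2 (0.0531), Cbfa2t2-ps1 for Pitx3 (0.0764) and Gm14325 for Msx1 (0.0862). The largest of these differences were those of the factors that vary most over the libraries, Msx1 with an RMS of 0.344 around its mean and Pitx3 with 0.263. The measure is not scaled by a gene's own spread, so larger values for such genes are partly built in. With so many genes and 6 libraries, a close match says little of a link between 2 genes. No factor was the best match of another.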

How the data were processed

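The libraries were made from total RNA of dissected E14.5 midbrain, 3 of Lmx1b cKO and 3 of control embryos. The authors deposited a table of gene means, whose signal columns (mean coverage) are read counts divided by a size factor per library and averaged over each group and over all 6 libraries. The submitters' processing notes name TopHat 1.0.14, Bowtie2 2.1.0, HTSeq 0.6.1p1, DESeq 1.10.1 and GRCm38.p4, without their roles, and the study's methods name paired-end reads and DESeq2. Use of strand in counting is not given in the sources used here. The ratio, log2 ratio and p-value columns that the authors deposited hold their own comparison and were not used. The 3 lines that name no gene hold 31.8% of the mean counts and were left out.

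Whole reads per library were recovered from the printed means: the 3 most frequent values are those of 1 read in 1 library, which gave the size factors, and all whole numbers that give each mean to its last printed digit were searched. Each of 33363 group means between 10 and 10000 had a single answer, against an answer for 2 of 1200 shifted decoy means. Above 10000, where Ebf3 lies, 855 of 938 means had a single answer and the rest several, and 275 of 600 decoys had an answer, so finding one checks little there. Size factors recomputed from the recovered counts differed by at most 0.00730%. Total reads per library limit the precision, and counting intervals cover counting error only. A library could not be tied to its sample label, so groups, not samples, were compared. The p-values measure the spread between pools of embryos, not between single embryos.

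A gene entered the test when its normalized count averaged 10 or more, and limma 3.58.1 (voom weights, R 4.3.3) was fitted with the genotype as the only term and p-values adjusted by Benjamini-Hochberg over all genes. Standard errors and 95% intervals are limma's. The fit and the recovery were tested on simulated data. Single values were compared by exact permutation of 3 against 3 libraries, two-sided. Alternatives were limma-trend on log2(normalized count + 1) or + 10, sample quality weights, other size factors, a minimum mean of 100 or none, and each library left out. Positions and exon lengths came from GENCODE on GRCm38, promoters from RefSeq. The 9 factors, the marker lists (dopaminergic genes, other lineage regulators, family relatives, serotonergic neurons, floor plate, roof plate and choroid plexus, subthalamic and mammillary, oculomotor and red nucleus, bone and mesenchyme, meninges, vascular cells, hindbrain Hox genes, forebrain) and the tests were chosen with earlier results of these data known. Some genes of these lists are not reported here and were left out of the lists' counts, medians and sums. Named were all 9 factors, genes of the first 3 lists with an unadjusted p under 0.05 or the highest level per kilobase, marker genes more than 10 times above the median of the other libraries in 1 library at 100 or more normalized counts, Th, and the gene most like each factor. Other genes of the lists are also named, outside these rules and with their values known. Scripts ran in Python 3.11.15 (numba 0.67.0, numpy 2.4.6, pandas 2.3.3, matplotlib 3.10.9 and scipy 1.17.1).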

Additional observations from a re-analysis of the deposited data

How the results depend on the processing

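No paired analysis was possible because the recovered libraries carry no replicate number. The deposited column names number the samples of each group from 1 to 3, and a pairing by those numbers, if there is one, is not in the fit. The count of factors with an adjusted p under 0.05 stayed at 0 under all 13 alternatives. Of 116 alternative log2 fold changes of single factors, 106 kept their direction and their side of the adjusted threshold, and 10 reversed. The adjusted p of every factor stayed at 0.982 or above, so these counts reflect direction alone. The count of factors with an unadjusted p under 0.05, 1 with all libraries, was 2 with sample quality weights and 2 with total counts as size factors, where Foxa2 joined Pitx3, and 0 to 2 with a library left out. The count over the other lineage regulators, dopaminergic genes and family relatives, 4 with all libraries, was 8 with sample quality weights and 3 to 9 with a library left out. With sample quality weights the log2 fold change turned to 0.092 for Msx1 and to 0.00363 for Pbx3. With a library left out, estimates ranged from -0.0744 to 0.0338 for Lmx1b, from -0.147 to 0.000308 for Foxa1, from -0.354 to 0.154 for Msx1, from -0.15 to 0.00724 for Ebf3 and from -0.0297 to 0.0264 for Pbx3. The log2 ratios to the dopaminergic marks then ranged from -0.116 to 0.191 for Lmx1a, from -0.0331 to 0.118 for Nr4a2, from -0.0761 to 0.145 for Foxa1, from -0.242 to 0.31 for Msx1 and from -0.0737 to 0.231 for Ebf3. The cause of these turns was not tested. Over all genes, 663 of 17130 had an unadjusted p under 0.05 with sample quality weights and 344 to 652 with a library left out, against 307 of 12898 at a minimum mean of 100 and 975 of 26805 with no filter. Without control replicate a, 5 genes had an adjusted p under 0.05, none of them a factor. Msx1 was not tested at a minimum mean of 100. Depth limits Msx1 and Pitx3 most, with 46 to 85 and 119 to 200 reads a library.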
